A study of Mus musculus with 6 samples.

Results

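Interferon-stimulated genes are the genes that cells switch on after an interferon has bound its receptor, and 45 of them were followed in splenic NK cells with and without the m6A methyltransferase METTL3. The genes were taken from a named list of 39 typical type I interferon genes (sensors, antiviral effectors and regulators) and of 6 interferon-inducible GTPases, and all 45 were among the 14490 genes of the deposited table. The data were mRNA-seq values of 3 WT and 3 cKO samples of NK cells from the spleen of C57BL/6 mice. WT samples came from Mettl3fl/fl mice, which carry both floxed alleles and no Cre. The cKO samples came from Ncr1Cre-Mettl3fl/fl mice, in which Cre is made from the Ncr1 locus, the gene of the NK receptor NKp46. The Cre allele at Ncr1 and the deletion of Mettl3 came together in every cKO sample and cannot be told apart. The NK cells were purified by flow-cytometric sorting, no treatment and no age are given in the sample labels, and the labels do not say whether the 3 samples of a genotype were separate mice. P-values therefore measure only the spread between these samples, which may be technical. The question put to the data was whether the typical genes and the GTPase group differed between the genotypes, and in which direction.

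Type I interferons act through the receptor IFNAR1/IFNAR2, the kinases JAK1 and TYK2 and a complex that holds STAT2 and IRF9 and binds interferon-stimulated response elements (ISREs) in the promoters of its target genes. Interferon gamma, which NK cells themselves secrete, acts through IFNGR1/IFNGR2, JAK1 and JAK2 and on gamma-activated sites (GAS) in promoters. Many interferon-stimulated genes respond to both kinds of interferon, the guanylate-binding proteins (GBPs) and immunity-related GTPases (IRGs) most strongly to interferon gamma, and in resting cells weak continuous signalling keeps many of them at a basal level.

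The values deposited are normalized counts, that is, reads per gene divided by the size factor of the sample. Reads on the listed genes amounted to between 55965515 and 71464042 per sample. As a check of the labels, Mettl3 had 1303, 1258 and 1192 normalized counts in WT and 297, 299 and 405 in cKO, and fell by 1.92 on the log2 scale (standard error 0.0986, limma adjusted p = 2.32e-14). All fold changes are given as cKO against WT on the scale of log2(normalized count + 1), which understates the change of genes with low counts. Called genes are those with an adjusted p under 0.05 in a two-sided limma fit, adjusted by the Benjamini-Hochberg method across the 14490 genes. The two-sided exact permutation test of 3 samples against 3 cannot go below p = 0.1, which was reached by genes whose genotypes did not overlap.

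The promoters were searched for a core of the element that the interferon-activated complex binds. RefSeq windows of the GRCm38.p6 assembly, 300 bases each, from 250 bases before to 50 bases after the gene start, were given for 33 of the 45 members. Genes with several starts have several windows, and a gene was counted where any of its windows held the motif. The ISRE core GAAANNGAAA, searched on both strands (TTTCNNTTTC on the other), was present in 19 of these 33 genes (57.6%), compared with 3.99% of all 27025 RefSeq genes with a window. Counted by window, it was in 21 of 40 (52.5%), against 3.44% of all windows. A GAS core, TTCNNNGAA, which reads the same on both strands, was present in 10 of the 33 genes (30.3%), compared with 9.55% of all genes with a window. Matches could overlap each other, and matches of both motifs were counted separately and may share bases. The ISRE core was found in 5 of 5 genes of the GTPase group with a window and in 14 of 28 typical genes. Gbp3 has a further window, of a later start, that held no match. Starts here are those of RefSeq, and the GENCODE starts used for gene positions can differ. The Irgm1 stretch lies inside its GENCODE gene (chr11:48861968-48871683), and most of the Gbp2 stretch lies past its GENCODE start (chr3:142620602). The stretches directly upstream of the RefSeq start are printed for the members of the GTPase group with a window on which the comparison turns. They have 80 bases each, 5′ to 3′ on the strand of the gene, and capitals mark ISRE cores on either strand, joined where matches overlap.
Gbp3, chr3:142559964-142560043, plus strand: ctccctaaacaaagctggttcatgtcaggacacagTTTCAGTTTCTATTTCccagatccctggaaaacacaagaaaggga
Gbp2, chr3:142620583-142620662, plus strand: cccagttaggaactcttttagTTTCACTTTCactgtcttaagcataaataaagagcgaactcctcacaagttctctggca
Gbp7, chr3:142530256-142530335, plus strand: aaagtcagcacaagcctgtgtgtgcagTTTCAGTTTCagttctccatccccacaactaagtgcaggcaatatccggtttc
Igtp, chr11:58199476-58199555, plus strand: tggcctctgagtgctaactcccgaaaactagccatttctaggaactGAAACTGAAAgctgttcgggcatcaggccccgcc
Irgm1, chr11:48871421-48871500, minus strand: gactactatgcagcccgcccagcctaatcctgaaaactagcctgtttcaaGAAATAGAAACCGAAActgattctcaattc

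For 5 typical genes whose values are described in full, the 130 bases upstream of the start are printed in the same way, to show cores of the same general pattern before genes called lower and a gene called higher.
Isg15, chr4:156200819-156200948, minus strand: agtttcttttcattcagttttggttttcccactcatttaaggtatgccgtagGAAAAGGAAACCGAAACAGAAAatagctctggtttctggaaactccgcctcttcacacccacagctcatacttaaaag
Ifit1, chr19:34640759-34640888, plus strand: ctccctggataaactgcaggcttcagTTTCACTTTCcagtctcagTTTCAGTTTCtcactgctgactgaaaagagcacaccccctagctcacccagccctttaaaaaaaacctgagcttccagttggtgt
Rsad2, chr12:26456453-26456582, minus strand: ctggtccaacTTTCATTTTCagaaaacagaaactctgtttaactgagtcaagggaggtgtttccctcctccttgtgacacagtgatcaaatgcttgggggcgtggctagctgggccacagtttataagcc
Oas1a, chr5:120907526-120907655, minus strand: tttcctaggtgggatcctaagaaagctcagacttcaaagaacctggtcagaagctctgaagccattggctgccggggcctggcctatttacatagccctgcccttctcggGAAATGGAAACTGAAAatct
Oas3, chr5:120777660-120777789, minus strand: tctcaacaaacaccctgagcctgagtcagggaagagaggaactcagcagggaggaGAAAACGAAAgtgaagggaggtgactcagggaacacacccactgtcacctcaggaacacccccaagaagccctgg
Isg15, Ifit1, Rsad2 and Oas1a were lower in cKO and Oas3 was higher. The free letters of the core did not fully divide the genes by direction. Those of Oas3 and of Trim30a, both called higher, were in no core of a member called lower. The Oas3 core recurred in the window of Eif2ak2 and the Trim30a core in that of Phf11b, neither of them called. Igtp, called higher, had the same free letters as cores of Ifit1, Oas1a and Gbp3, called lower. Among the members with a window, the ISRE core was present in 8 of 11 called lower, 3 of 5 called higher and 8 of 17 not called. These are matches of letters in a window of fixed length, and no binding was measured. Elements that depart from the core or lie outside the window were not counted.

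Across the 45 members, 21 were called, 7 of them higher and 14 lower in cKO, and 24 were not. This is 46.7% of the members, against 36.6% of all genes tested, of which 17.8% were called higher and 18.8% lower. The median log2 fold change of the members was -0.064, against 0.001 over all genes, and moved to -0.030 without WT sample 1, to -0.032 without cKO sample 3 and to -0.014 with equal totals. Their median absolute log2 fold change was 0.177, against 0.167. Genotypes did not overlap for 27 of the 45 members (60.0%), with cKO above WT for 11 and below for 16, against 45.7% of all genes. The 95% confidence interval lay between -0.5 and 0.5 for 33 members and between -1 and 1 for 40. Of the 21 called members, 12 (57.1%) differed by under 0.5 on the log2 scale, against 4300 of the 5307 called genes of the whole table (81%). Only Oas2 and Iigp1 passed an unadjusted p under 0.05 with a log2 fold change beyond 1 in size, which 1.75% of all genes did. The split between directions depended on the scaling. With the samples scaled to equal totals over the listed genes, which moved the median of all genes to 0.051, 10 members were called higher and 10 lower, and the share of calls over all genes that were higher moved from 48.5% to 63.4%.

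**Figure D1:**
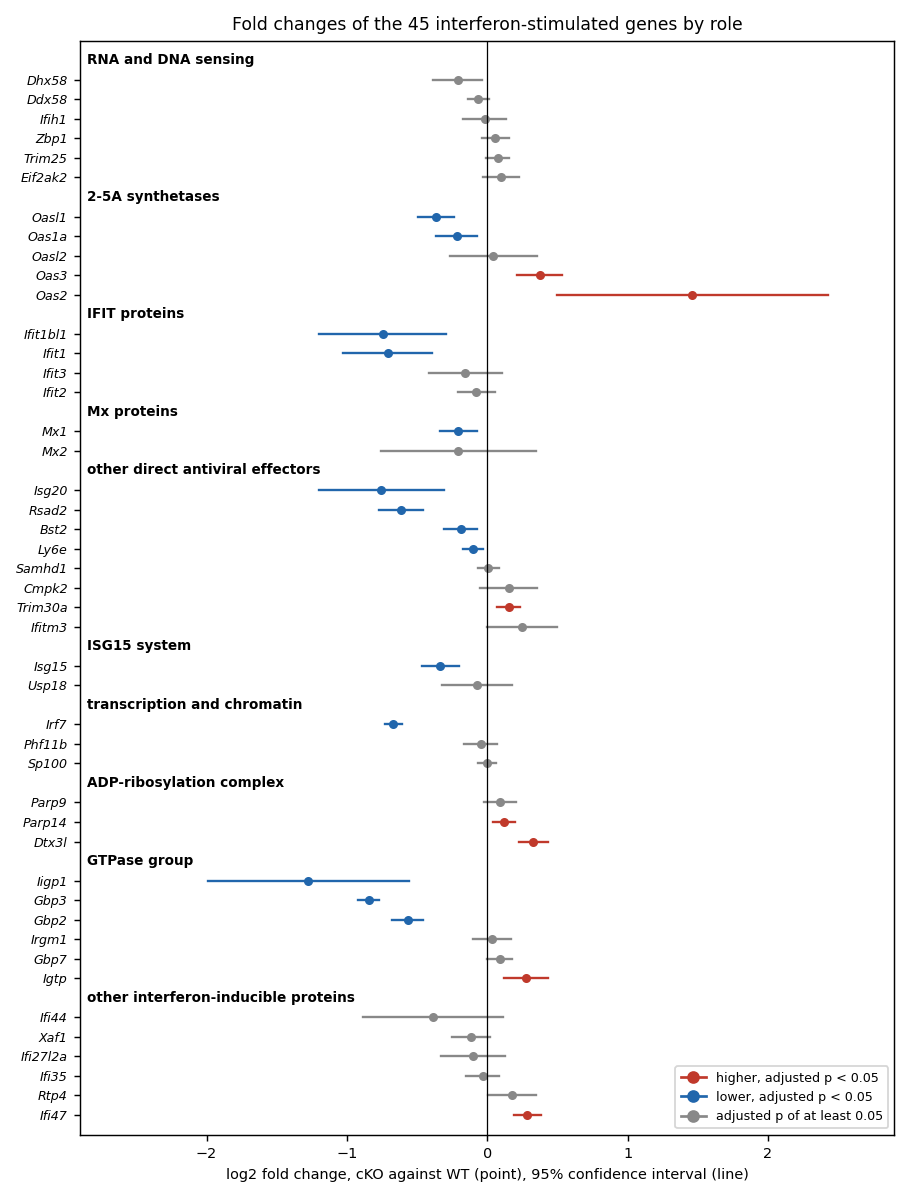
Log2 fold change of each of the 45 members, cKO against WT (point), with its 95% confidence interval (line, x axis in log2 units), ordered by role. Red points are called higher (7 genes), blue points lower (14 genes) and grey points are not called (24 genes); the 2-5A synthetases, the antiviral effectors and the GTPase group hold called genes on both sides of 0.

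**Figure D2:**
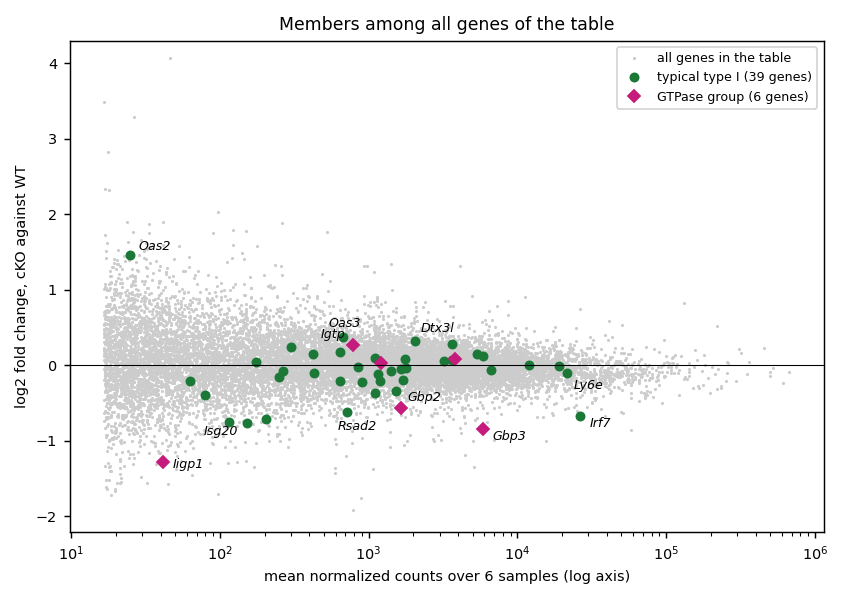
Log2 fold change, cKO against WT (y axis), plotted against the mean normalized count over the 6 samples (log x axis) for all 14490 genes (grey), the 39 typical genes (green circles) and the 6 genes of the GTPase group (magenta diamonds). Most members lie within the cloud of all genes, while Gbp3 (-0.84) and Irf7 (-0.67) lie below most genes of their level.

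Both the typical genes and the GTPase group were split in direction. Of the 39 typical genes, 17 were called (43.6%), 6 higher and 11 lower, with a median log2 fold change of -0.064. Of the 6 genes of the GTPase group, 4 were called (66.7%), 1 higher and 3 lower. Over all genes tested, 36.6% were called, 17.8% higher and 18.8% lower. Gbp3, Gbp2 and Iigp1 were lower in cKO, Igtp was higher, and Gbp7 and Irgm1 were not called, so that the median of the 6 log2 fold changes, -0.266, describes none of them well. GBPs are large GTPases that gather on vacuoles and on bacteria in the cytosol. Gbp3 had 7781, 7437 and 7573 normalized counts in WT and 4277, 4217 and 4190 in cKO. The genotypes were far apart and the samples of each lay close together, with means of 7597 ± 173 (SD, n = 3) and 4228 ± 44.6 (SD, n = 3) and Gbp3 fell by 0.84 on the log2 scale (standard error 0.0365, limma adjusted p = 7.91e-16). Gbp2 had 1967, 1937 and 1973 normalized counts in WT and 1335, 1317 and 1313 in cKO, again without overlap, and fell by 0.57 on the log2 scale (standard error 0.0526, limma adjusted p = 2.41e-09). Gbp7 had 3553, 3906 and 3710 normalized counts in WT and 3789, 3968 and 4116 in cKO. Its genotypes overlapped and its log2 fold change was 0.09 (95% confidence interval -0.00 to 0.18, limma adjusted p = 0.125). Gbp7 was called higher with equal totals or without WT sample 2.

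IRGs are smaller GTPases that act on the membranes of vacuoles holding parasites or bacteria. Among them, Igtp, which encodes IRGM3, had 745, 690 and 693 normalized counts in WT and 803, 871 and 901 in cKO. All 3 cKO samples were above all WT samples, and it rose by 0.27 on the log2 scale (standard error 0.0755, limma adjusted p = 0.00517). The annotation of Igtp overlaps that of Irgm2, another IRG, on the same strand, so reads of the shared part cannot be told apart, and Irgm2 was at 0.07 and not called. Irgm1, a regulator of the other IRGs, had 1184, 1217 and 1194 normalized counts in WT and 1178, 1356 and 1158 in cKO. Its cKO values spanned the WT values, and the log2 fold change of 0.03 (95% confidence interval -0.10 to 0.17) was not called. Iigp1, an effector IRG, had 66.5, 70.2 and 41.0 normalized counts in WT and 31.5, 15.4 and 25.6 in cKO. Its cKO samples were below its WT samples, and it fell by 1.28 on the log2 scale (standard error 0.348, limma adjusted p = 0.00486), but at these counts the interval ran from -1.99 to -0.56. Where genes with few reads were left out, Iigp1 was dropped and the median of the 5 remaining genes was 0.035. Ifi47, an IRG that the list places among the typical genes, rose in cKO. Counted with it, 2 of 7 GTPases were higher and 3 lower, with a median of 0.03 (71.4% called, against 36.6% of all genes tested). With equal totals, 2 of the 6 genes of the group were called higher and 3 lower. Of all 14490 genes, 3487 were then called higher and 2016 lower.

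**Figure D3:**
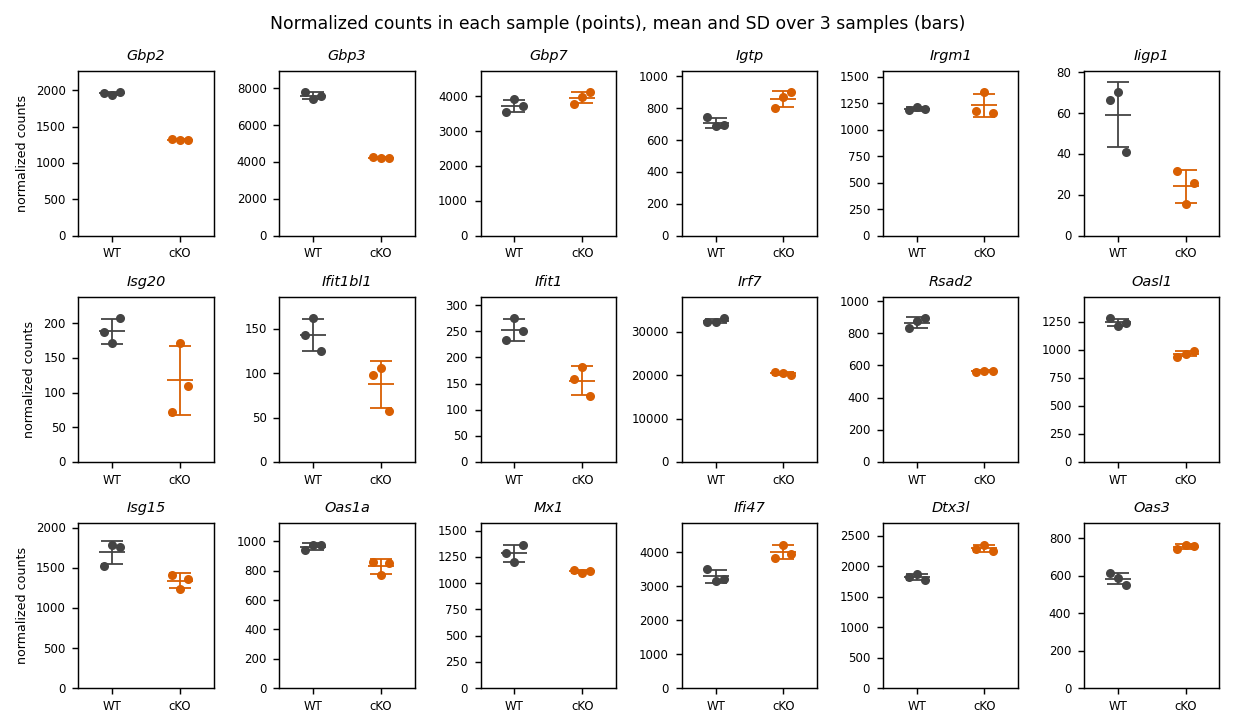
Normalized counts (y axis, from 0, own scale in each panel) of the 6 genes of the GTPase group and of 12 typical genes in the 3 WT (grey) and 3 cKO (orange) samples, with bars for the mean and SD over 3 samples. Gbp2, Gbp3, Irf7 and Rsad2 show tight groups far apart, Gbp7 and Irgm1 overlap, and for Isg20 the cKO samples spread from 72.2 to 171.

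Transcription and chromatin regulators were next. Irf7, the transcription factor that amplifies type I interferon production, had 32265, 32368 and 33113 normalized counts in WT and 20759, 20575 and 20097 in cKO. It was the member with the highest level per kilobase of exon (7026 normalized counts per kb, mean of 6 samples), its genotypes were far apart, and it fell by 0.67 on the log2 scale (standard error 0.0296, limma adjusted p = 1.30e-15). Irf7 (GRCm38 chr7:141262706-141266481, minus strand) overlaps Phrf1 on the other strand. Whether strand was used in counting is not stated, and Phrf1 moved the other way, from 10050 ± 27.6 (SD, n = 3) in WT to 11083 ± 187 (SD, n = 3) in cKO. The nuclear body protein Sp100 was measured precisely and did not separate the genotypes, with 19098 ± 324 in WT and 19081 ± 348 in cKO (SD, n = 3) and a log2 fold change between -0.06 and 0.06 at 95% confidence. Phf11b, a PHD-finger gene with close relatives that may share its reads, was at -0.05 and not called.

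RNA and DNA sensors, which detect viral nucleic acid in the cytosol, were listed together with Trim25, which is not itself a sensor. By limma, 6 of 6 of these genes were not called in either direction. At an unadjusted p under 0.05, only Dhx58 passed. Dhx58, which encodes the regulatory helicase LGP2, was at -0.21 (limma adjusted p = 0.0527), and it was called lower under 3 of the alternatives. Ifih1 (the RNA sensor MDA5) was at -0.02 and Ddx58 (the RNA sensor RIG-I) at -0.06. Zbp1, a sensor of Z-form nucleic acid, was at 0.06, Trim25, the ubiquitin ligase of the RIG-I pathway, at 0.07, and Eif2ak2, the kinase PKR, at 0.10. The 95% confidence intervals of all 6 genes lay between -0.5 and 0.5. Trim25 was called higher with equal totals.

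The 2-5A synthetase family, whose catalytic members make the oligoadenylates that activate RNase L, split in direction. Oasl1, a catalytically inactive relative that binds RNA, had 1279, 1215 and 1240 normalized counts in WT and 939, 964 and 988 in cKO. The groups did not overlap, and it fell by 0.37 on the log2 scale (standard error 0.0626, limma adjusted p = 3.46e-05). Oas1a had 939, 978 and 975 normalized counts in WT and 862, 773 and 852 in cKO, also without overlap, and fell by 0.22 on the log2 scale (standard error 0.0704, limma adjusted p = 0.0159), a call that was lost with equal totals and without cKO sample 2, where the highest adjusted p of its alternatives was 0.0921. Oas3 moved the other way, from 613, 588 and 552 normalized counts in WT to 742, 767 and 758 in cKO, with all cKO samples above all WT samples, and rose by 0.37 on the log2 scale (standard error 0.0793, limma adjusted p = 0.000496). Oas2 had the largest fold change of the members and the lowest level, 5.96, 10.7 and 26.3 normalized counts in WT and 41.7, 28.2 and 36.6 in cKO. Its highest WT sample came close to its lowest cKO sample. The log2 fold change was 1.46 (95% confidence interval 0.49 to 2.43, limma adjusted p = 0.0159), and the call was lost without WT sample 1, cKO sample 1 or cKO sample 3 (highest adjusted p 0.0911). Oasl2, another family member, was at 0.04 and not called.

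The IFIT proteins bind RNA that lacks the cap modifications of the host. Ifit1 had 234, 275 and 250 normalized counts in WT and 159, 181 and 127 in cKO. The genotypes did not overlap, and it fell by 0.71 on the log2 scale (standard error 0.154, limma adjusted p = 0.000601). Ifit1bl1, a close relative of Ifit1 with which it may share reads, had 143, 162 and 125 normalized counts in WT and 98.6, 106 and 57.6 in cKO, and fell by 0.75 on the log2 scale (standard error 0.220, limma adjusted p = 0.00870). Its lowest value was in cKO sample 3, and without that sample its log2 fold change was -0.47 with an adjusted p of 0.0861. Ifit2 was at -0.08 and Ifit3 at -0.16, and neither was called. Of the Mx GTPases, Mx1 had 1284, 1203 and 1368 normalized counts in WT and 1125, 1099 and 1115 in cKO. All cKO samples were lower, and it fell by 0.21 on the log2 scale (standard error 0.0629, limma adjusted p = 0.0113), which was not called with equal totals or without WT sample 3. Mx2, with means of 67.5 ± 16.9 in WT and 58.1 ± 12.3 in cKO (SD, n = 3), overlapped between genotypes, and with an interval of -0.76 to 0.34 a difference was not detectable at this depth.

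Among the other direct antiviral effectors, Rsad2, which encodes the radical SAM enzyme viperin, showed the clearest difference. It had 831, 876 and 893 normalized counts in WT and 557, 567 and 568 in cKO. The cKO samples were nearly equal and all below WT, and Rsad2 fell by 0.62 on the log2 scale (standard error 0.0764, limma adjusted p = 3.49e-07). Isg20, an exonuclease that degrades RNA, had 187, 171 and 207 normalized counts in WT and 72.2, 171 and 110 in cKO. Its highest cKO sample reached nearly the level of the lowest WT sample. It fell by 0.76 on the log2 scale (standard error 0.217, limma adjusted p = 0.00713), and without cKO sample 1 its log2 fold change was -0.45 with an adjusted p of 0.0842. Smaller differences were called for Bst2 (tetherin, which holds budding virions at the membrane), at -0.19, and for the surface protein gene Ly6e, at -0.10. Both calls were lost with equal totals, that of Bst2 also without WT sample 2 or cKO sample 1, and that of Ly6e without WT sample 1 or cKO sample 3. Trim30a, a ubiquitin ligase gene, was called higher, at 0.15 (limma adjusted p = 0.00347). Not called were Cmpk2, a mitochondrial nucleotide kinase gene, at 0.15, Ifitm3, whose protein blocks membrane fusion of viruses, at 0.25, and Samhd1, a dNTP hydrolase gene, at 0.01 with an interval of -0.07 to 0.08.

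In the ISG15 system, Isg15 itself, the ubiquitin-like modifier, had 1526, 1792 and 1762 normalized counts in WT and 1416, 1241 and 1367 in cKO. The genotypes did not overlap, although WT sample 1 lay close to cKO sample 1, and it fell by 0.33 on the log2 scale (standard error 0.0650, limma adjusted p = 0.000181). Usp18, the protease that removes ISG15 and dampens the type I receptor, was at -0.08 and not called, with 272 ± 4.52 in WT and 258 ± 8.02 in cKO (SD, n = 3). The ADP-ribosylation complex had no lower member. Dtx3l, the ubiquitin ligase that partners PARP9, had 1830, 1870 and 1780 normalized counts in WT and 2274, 2355 and 2250 in cKO. Every cKO sample was above every WT sample, and it rose by 0.33 on the log2 scale (standard error 0.0491, limma adjusted p = 6.55e-06). Parp14, a mono-ADP-ribosyltransferase gene, was higher by 0.12 (limma adjusted p = 0.0126), a call lost without WT sample 2 or cKO sample 1, and Parp9 was at 0.09 and not called.

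Of the remaining inducible genes, only Ifi47 was called. It had 3496, 3151 and 3201 normalized counts in WT and 3834, 4220 and 3935 in cKO, with all cKO samples above all WT samples, and rose by 0.28 on the log2 scale (standard error 0.0467, limma adjusted p = 2.32e-05). The annotation of Ifi47 overlaps that of Olfr56 on the same strand and that of Gm12188 on the other, so some reads may be shared. Rtp4, a chaperone gene, was at 0.18 (limma adjusted p = 0.103), Ifi35 at -0.03, Ifi27l2a at -0.10, the apoptosis-linked gene Xaf1 at -0.12 and Ifi44 at -0.38. Ifi44 had 90.1 ± 18.8 normalized counts in WT and 68.8 ± 15.1 in cKO (SD, n = 3), so that its interval ran from -0.88 to 0.11.

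Several members are neighbours on a chromosome, and some neighbours were called in the same direction while others were not. Oas2 and Oas3, 3244 bases apart on chromosome 5 (GRCm38), were both higher, Ifit1bl1 and Ifit1 on chromosome 19 were both lower, and so were Gbp3 and Gbp2. Parp14 and Dtx3l on chromosome 16 were both higher. Rsad2 and Cmpk2 lie 12751 bases apart on opposite strands of chromosome 12, and Rsad2 was lower while Cmpk2 was not called. Within each sample, the ratio of Cmpk2 to Rsad2 normalized counts was 0.464 ± 0.0267 in WT and 0.791 ± 0.0303 in cKO (SD, n = 3). On chromosome 3, Gbp7, Gbp3 and Gbp2 follow each other on the plus strand, with gaps of 9876 and 47392 bases. The ratio of Gbp7 to Gbp3 was 0.491 ± 0.0343 in WT and 0.936 ± 0.0484 in cKO (SD, n = 3), so that Gbp7 came close to the normalized counts of Gbp3 in cKO. The ratio of Gbp2 to Gbp3 moved less, from 0.258 ± 0.00442 to 0.313 ± 0.000720 (SD, n = 3). Oas3 and Oas1a stand 118594 bases apart on the same strand, and their ratio was 0.607 ± 0.0431 in WT and 0.914 ± 0.0688 in cKO (SD, n = 3). On chromosome 16, Dtx3l and Parp9 overlap by 682 bases on opposite strands, and reads of the shared part cannot be told apart if strand was not used. The pairs with a ratio were chosen after their values were seen, and a ratio within a sample does not depend on how samples were scaled.

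**Figure D4:**
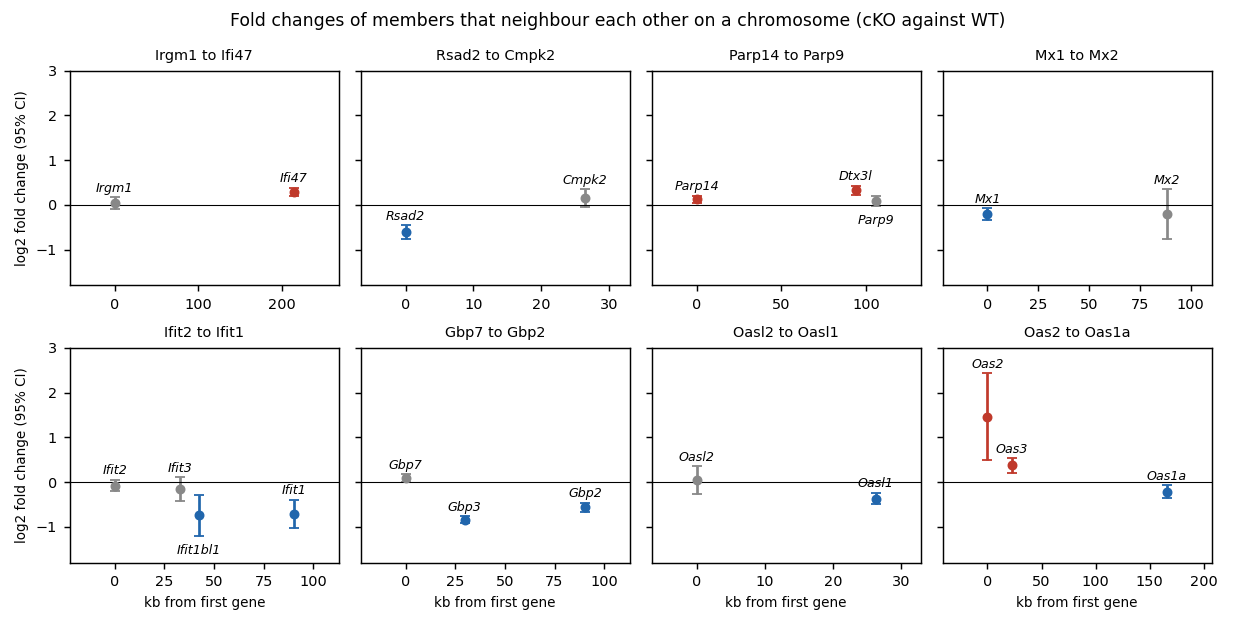
Log2 fold change with its 95% confidence interval (y axis, cKO against WT) of members that lie near each other, plotted by the distance of the gene start from that of the first gene in kb (x axis, own scale in each panel). Red is called higher, blue lower and grey not called; Rsad2 (-0.62) stands beside Cmpk2 (0.15), and Gbp3 (-0.84) and Gbp2 (-0.57) beside Gbp7 (0.09).

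The other genes of the pathway were read from lists of the same kind. Of 14 interferon genes only Ifng was in the table, and it was higher in cKO, with 48707 ± 2106 normalized counts in WT and 54470 ± 1927 in cKO (SD, n = 3) and a difference of 0.16 on the log2 scale (limma adjusted p = 0.000350). Genes of low level may be missing from the table, so absence of the others does not show that they were not expressed. Of 17 receptor and signalling genes, 5 were higher and 6 lower (64.7% called, against 36.6% of all genes tested). The type I receptor chain Ifnar1 was at -0.40 (limma adjusted p = 7.40e-10) and the interferon gamma receptor chain Ifngr1 at -0.31 (limma adjusted p = 2.37e-09), both lower. The other chains, Ifnar2 at -0.10 and Ifngr2 at 0.31, were not called. Among the kinases, Tyk2 was lower (-0.20) and Jak1 (0.12) and Jak2 (0.13) were higher. Of the complex that binds the ISRE, Irf9 was lower (-0.15, limma adjusted p = 0.00582) and Stat2 was higher (0.12, limma adjusted p = 0.0451). The genotypes overlapped for Stat2 and not for Irf9. Genes of negative regulators of this signalling moved too: Socs1 (0.53) and Socs3 (0.33) rose, and the phosphatase gene Ptpn2 (-0.31) fell.

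Upstream of interferon, 3 of 15 listed sensing genes were higher and 4 lower (46.7% called, against 36.6% of all genes tested). The higher genes were Mavs (0.29), the adaptor of the RNA sensors, Rnaseh2b (0.23), a subunit gene of RNase H2, and the kinase gene Ikbke (0.13). The largest falls were those of Irf5 (-0.67), a transcription factor downstream of Toll-like receptors, the Toll-like receptor adaptor gene Ticam1 (-0.32) and Rnaseh2c (-0.25), another subunit gene of RNase H2. Of 13 other interferon-inducible GTPases, 2 were higher (Tgtp2 0.48, Gvin1 0.24) and 4 lower (46.2% called, against 36.6% of all genes tested). The largest falls were those of Gbp6 (-0.62), 9930111J21Rik2 (-0.51) and Gbp5 (-0.18), the last with overlapping genotypes. Closely related genes among these may share reads. Of 59 other interferon-stimulated genes, 7 were higher and 15 lower, with a median log2 fold change of -0.04. The share called, 37.3%, was near the 36.6% of all genes tested. The largest falls there were those of Ddx60 (-0.79), Ifi211 (-0.74) and Ifi27 (-0.55), and the largest rises those of Ifi208 (0.63), Parp11 (0.45) and Lgals3bp (0.44).

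**Figure D5:**
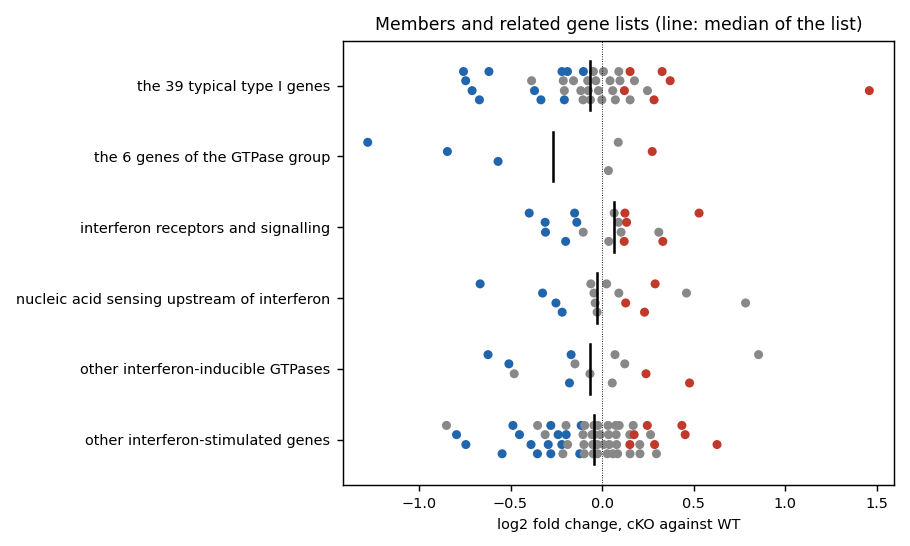
Log2 fold change, cKO against WT (x axis), of each gene (points) of the typical genes, the GTPase group and 4 related lists, with the median of each list as a vertical line. Red is called higher, blue lower and grey not called; each list has genes on both sides of 0, and the medians lie between -0.266 and 0.066.

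The sorted cells were checked against marker genes, since other cells of the spleen also express interferon-stimulated genes. NK markers were high in every sample (sum of 10 markers between 621223 and 726995 normalized counts), with 7 lower and 1 higher (Tbx21) in cKO. Over the whole table, 36.6% of genes were called, 17.8% higher and 18.8% lower, which is the background for every marker list here. Ncr1, the locus that carries Cre in cKO, was at -0.40. B-cell markers were higher in cKO for 10 of 11, and their sum without Ighm ranged from 1478 to 1550 in WT and from 2102 to 2150 in cKO. T-cell markers were lower for 2 of 7 listed (Cd3g and Cd28) and higher for 0, with sums of 13286 to 14500 in WT and 9076 to 9646 in cKO. Without these 2 genes the T-cell sums overlapped, at 979 to 1190 in WT and 942 to 1120 in cKO, and Cd8a was at 0.66 and not called (limma adjusted p = 0.0514). Myeloid markers were higher for 3 and lower for 2 of 7, those of plasmacytoid dendritic cells higher for 1 and lower for 2 of 5, and 0 of 4 erythroid markers were called. The share of markers called was below that of all genes for the T-cell and erythroid lists and above it for the others. Whether these shares differ from that of all genes was not tested. Siglech, a defining gene of plasmacytoid dendritic cells, and the neutrophil genes S100a8 and S100a9 were not among the genes of the table. Their absence does not show that they were not expressed. In bulk samples, fewer cells of a type and less RNA per cell cannot be told apart. The part of these differences in the values of the members was not tested.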

How the data were processed

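The study's mRNA-seq of sorted splenic NK cells was analysed, 3 WT and 3 cKO samples, grouped by the sample labels. Upstream, the authors mapped the read pairs to GRCm38 with HISAT2, summarised them per gene with featureCounts and normalized them with DESeq2. The authors' processing notes in the labels name HISAT2 2.0.5 and 2.0, featureCounts 1.5.0-p3 and DESeq2 1.16.1, and the versions in the study's methods differ from these. Each deposited sample column is a signal: reads per gene over a DESeq2 size factor, as the authors computed it. Their mean, log2 fold change, standard error, test statistic, p-value and adjusted p-value from the authors' own comparison were not used. Raw counts were not used here.

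After adding 1, values were put on the log2 scale. A minimum of 1 in 3 or more samples removed none of the 14490 genes, and limma 3.58.1 in R 4.3.3 was fitted to all genes with a variance trend. Intervals are at 95% confidence. In each sample the values were whole multiples of a step, with a largest deviation of 5.5e-05 reads, which gave the reads on listed genes. The same fit was tested on simulated data made from the real genes' means, where 87 of 100 genes with a log2 change of 1 and 56 of 100 with 0.3 were recovered among 14490 genes. The changed genes were drawn only from genes above a minimum mean level, which Oas2 and Iigp1 did not reach. In the simulation 14290 genes were unchanged, whereas 5307 were called in the real data, so these shares need not hold there. The members, roles, pathway lists and marker lists were chosen with earlier results of these data known. Values in every sample are given for the GTPase group and for the 12 other members with the largest fold change among those called, whose genotypes did not overlap and whose mean reached 1 CPM. Oas2, under 1 CPM, was described in full after its values were seen, and so were the ratios of neighbours, the T-cell sum without Cd28 and Cd3g, Cd8a and the genes overlapping or lying beside members. Genes named from the pathway lists are the signalling core, of which 1 gene is not reported here, and the 3 largest rises and falls of each list among those called. In the receptor and signalling list they include Socs1, Socs3 and Ptpn2. Positions and exon lengths came from GENCODE M21 (GRCm38), promoter windows from RefSeq (GRCm38.p6). Alternatives were a pseudocount of 0.1, a filter of at least 1 CPM in 3 samples, equal totals, limma-voom weights (added after seeing the data), the replicate number as a block and each sample left out in turn. Figures were drawn with matplotlib 3.10.9.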

Additional observations from a re-analysis of the deposited data

How the results depend on the processing

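With a pseudocount of 0.1 and with voom weights, all 45 members kept their direction and their side of the threshold. The filter of at least 1 CPM in 3 samples left 42 members, of which 41 kept both and Dhx58 became called. With equal totals, 34 of 45 did, Bst2, Ly6e, Mx1 and Oas1a were no longer called, and Gbp7, Rtp4 and Trim25 became called. Typical genes called lower then numbered 7 in place of 11, and genes of the GTPase group called higher 2 in place of 1. Over the whole table, 2016 genes were then called lower in place of 2731, and 3487 higher in place of 2576. The direction turned for Ifih1 (0.03), Sp100 (0.048), Phf11b (0.0022) and Ifi35 (0.015), none of them called. With each sample left out in turn, between 17 and 21 members were called. Over the whole table, between 4417 and 4922 genes were called in these fits, in place of 5307. Genes of the GTPase group called higher numbered between 1 and 2, with 2 without WT sample 2. Directions turned there only for members not called, with log2 fold changes from -0.014 to 0.013 for Sp100, -0.067 to 0.019 for Ifi35, -0.064 to 0.024 for Ifih1, -0.023 to 0.039 for Samhd1, -0.037 to 0.077 for Irgm1 and -0.21 to 0.013 for Ifi27l2a. Gbp2, Gbp3, Igtp, Irf7, Rsad2, Ifit1, Isg15, Oasl1, Oas3, Dtx3l, Ifi47 and Trim30a were called under every alternative run, and Iigp1 under every one that kept it.

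With the replicate number as a replicate block, 22 members were called, 7 higher and 15 lower, Dhx58 being added, and 5543 genes over the whole table in place of 5307. The deviations of same-numbered samples from their group means correlated at -0.0396, 0.056 and 0.038 for numbers 1, 2 and 3, so the numbers were not taken to pair the samples. The edgeR and DESeq2 tests on recovered reads were planned and not run, so no count model stands beside the limma results. With 3 samples per genotype, the spread of a gene is poorly known, and for members of low level such as Oas2, Iigp1, Mx2 and Ifi44 intervals were wide. Where a call was lost, the cause was not tested.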
